A study of Mus musculus with 10 samples.

Results

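The cytosolic ribosomal proteins were followed in the mouse hippocampus after maternal estradiol exposure. The set was chosen by name: every non-control probe whose gene name begins with Rpl or Rps and a digit, or is Rplp0, Rplp1, Rplp2 or Rpsa, with the Rps6k kinases left out. The rule took 146 of the 41174 non-control probes on the array, and 142 of them were bright enough to enter the comparison. They stood for 86 of the 20071 genes tested, made up of 43 large subunit genes, 3 stalk genes, 31 small subunit genes, 7 paralogs and 2 genes that share the prefix without being subunits, Rps19bp1 and Rps15a-ps4. Of the 86 genes, 85 were well above background on all 10 arrays, and Rpl39l was so on NC 1, NC 4, NC 5 and HE 5 only.

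Hippocampal RNA from 10 adult animals of the outbred ICR stock was read on 1-colour Cy3 Agilent arrays, each animal on its own array. For the HE group (5 arrays) the mother was dosed by mouth with estradiol valerate, a prodrug of estradiol, at 100 µg/kg/day between E5.5 and E11.5. For the NC group (5 arrays) the mother was given corn oil alone. All 10 animals are labelled male, litters are not given, and the p-values speak only of variation among these animals.

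Each signal is a log2 ratio to the 75th percentile of its array, so a value of 0 is the brightness that 75% of probes stay under. That percentile moved with the group, from 898 to 1186 intensity units in NC and from 1140 to 1277 in HE. The arrays lay on 3 slides: NC 1 to NC 4 on slide 1, NC 5 with HE 1 and HE 2 on slide 2, and HE 3 to HE 5 on slide 3. The RNA of the inactive X, Xist, was high (3.21 to 4.45) on the first 4 NC arrays and the first 3 HE arrays and low (-7.25 to -4.51) on NC 5, HE 4 and HE 5, so 7 arrays did not match the male label. Values on the arrays with high Xist alone, and within slide 2, are given for the family and for the called genes after the results by role.

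Ribosomal proteins are the protein part of the cytosolic ribosome: a small subunit that reads the mRNA and a large subunit that joins amino acids. Each subunit needs its proteins in equal numbers, and cells make them from abundant, short mRNAs whose genes are widely regulated together. In neurons these mRNAs are also carried into dendrites and axons. Their 5′ ends usually begin with a C followed by a run of pyrimidines, the terminal oligopyrimidine (TOP) tract, through which mTORC1 and LARP1 set their translation, and their promoters often hold ETS-type sites.

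Promoter sequence was at hand for 64 of the 86 genes, from RefSeq on GRCm38.p6. The windows of 7 genes are shown as examples, all with a CTTTC or CTTCC close to the start, a match that 25 of the 64 held. They are those of Rpl35, Rpl38, Rps24, Rps27 and Rpl36a, which fell in HE on this scale, and of Rpl7a and Rplp2, which did not pass the test. Each runs 5′ to 3′ from 45 bases before to 15 bases after the start, and capitals mark CTTTC or CTTCC close to the start on the sense strand and CCGGAAG on either strand. The windows lie at chr2:39005117-39005176 (Rpl35, minus strand), chr11:114668535-114668594 (Rpl38, plus strand), chr14:24490633-24490692 (Rps24, plus strand), chr3:90213634-90213693 (Rps27, minus strand), chrX:134585609-134585668 (Rpl36a, plus strand), chr2:26910762-26910821 (Rpl7a, plus strand) and chr7:141447606-141447665 (Rplp2, plus strand).
Rpl35: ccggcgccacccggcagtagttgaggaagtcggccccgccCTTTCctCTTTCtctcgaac
Rpl38: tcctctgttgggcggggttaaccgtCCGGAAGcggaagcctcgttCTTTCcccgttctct
Rps24: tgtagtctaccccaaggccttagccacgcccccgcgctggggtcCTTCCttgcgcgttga
Rps27: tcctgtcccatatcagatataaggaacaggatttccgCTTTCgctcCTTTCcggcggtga
Rpl36a: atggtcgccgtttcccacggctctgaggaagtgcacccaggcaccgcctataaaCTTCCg
Rpl7a: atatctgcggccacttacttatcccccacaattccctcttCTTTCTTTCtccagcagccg
Rplp2: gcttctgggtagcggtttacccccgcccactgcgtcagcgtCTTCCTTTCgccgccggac

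Within 15 bases of the start on either side, CTTTC or CTTCC on the sense strand was found in 25 of the 64 promoters (39.1%), against 12.1% of all 27025 promoters. On the other strand of the same window the figures were 12 of 64 (18.8%) and 12.2%. Over the whole 300 bases and on both strands, CCGGAAG, a core of ETS-type sites, was found in 26 of 64 (40.6%), against 9.93% of all promoters. AAGATGG was found in 10 of 64 (15.6%, against 7.28%) and GGGCGG in 40 of 64 (62.5%, against 38.2%). These matches are letters in a window, and a CTTCC can be part of the complement of CCGGAAG. The CTTTC or CTTCC match was held by 6 of the 14 genes with a promoter that fell and by 19 of the 50 that did not pass. The median log2 fold change was -0.22 with the match and -0.19 without it.

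Against the 75th percentile, 16 of the 86 ribosomal protein genes were lower in HE than in NC at an adjusted p under 0.05 (limma, Benjamini-Hochberg over all genes) and 0 were higher, whereas without scaling between arrays 0 were lower and 3 higher, and after normexp background correction centred on the median gene 2 were lower and 4 higher. The background in the same fit was 13.9% of all genes lower and 6.49% higher, beside 18.6% of the ribosomal protein genes lower. At an unadjusted p under 0.05 in limma, 37 were lower and 1 higher, beside 23.6% of all genes lower and 13.3% higher. Their median log2 fold change, HE minus NC, was -0.22 (median SE 0.10), beside -0.06 over all genes. A negative fold change was seen in 73 of 86 (84.9%), beside 56.0% of all genes. All 5 HE arrays lay below all 5 NC arrays for 18 of the 86 genes, while 11.0% of all genes did so, and for 0 of the 86 did all HE arrays lie above, while 5.57% of all genes did so.

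**Figure D1:**
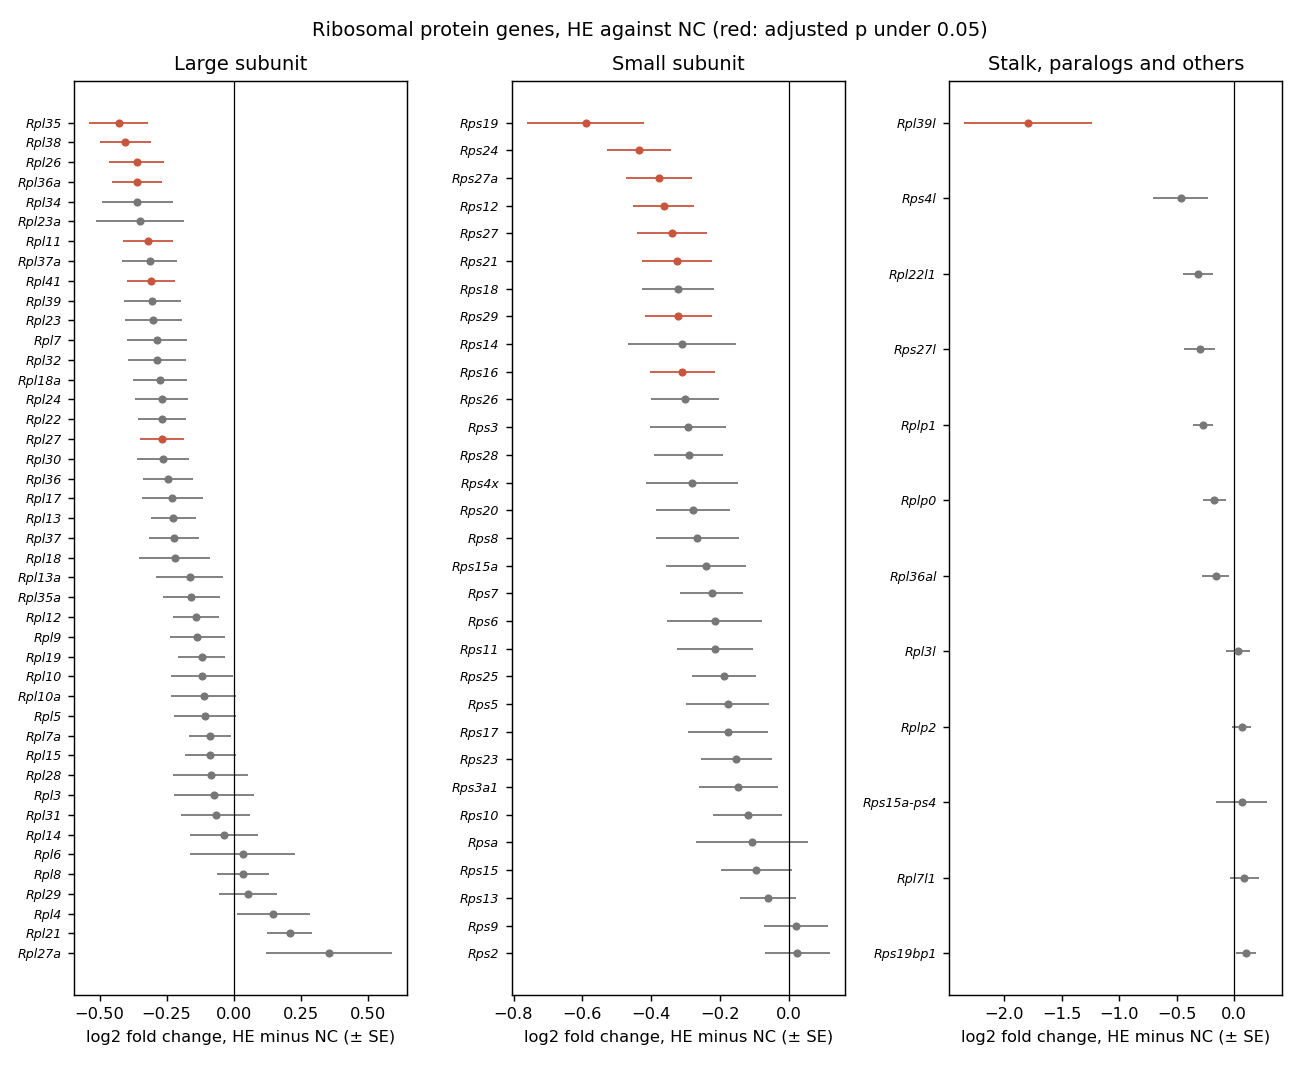
Log2 fold change, HE minus NC, with its SE (horizontal bars) for the 86 ribosomal protein genes, by role; red marks the 16 genes at an adjusted p under 0.05. Relative to the 75th percentile, 73 of 86 points lie left of 0, a direction that turned for the family's median without scaling between arrays and after centred normexp.

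The shift was uneven between animals. The median over the 86 genes, each taken as its deviation from its own 10-array mean, was -0.08 on NC 1, 0.15 on NC 2, 0.13 on NC 3, 0.01 on NC 4 and 0.34 on NC 5. In HE it was -0.11 on HE 1, -0.07 on HE 2, 0.01 on HE 3, -0.19 on HE 4 and -0.20 on HE 5. NC 5 stood highest and held the top signal of 67 of the 86 genes, while NC 1 lay within the HE range, so the groups overlapped on this median. NC 4 (0.0077) was just above the highest HE array, HE 3 (0.0055). The same median over all genes was also highest on NC 5, at 0.13, and lowest on HE 3, at -0.09. Without scaling between arrays the members' median was highest on NC 3, at 0.23, and was 0.15 on NC 5. NC arrays also varied more: the SD over arrays was larger in NC for 78 of 86 genes, with a median of 0.18 in NC and 0.10 in HE. Over all genes the medians were 0.27 and 0.21, and the SD was larger in NC for 12811 of 20071.

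**Figure D2:**
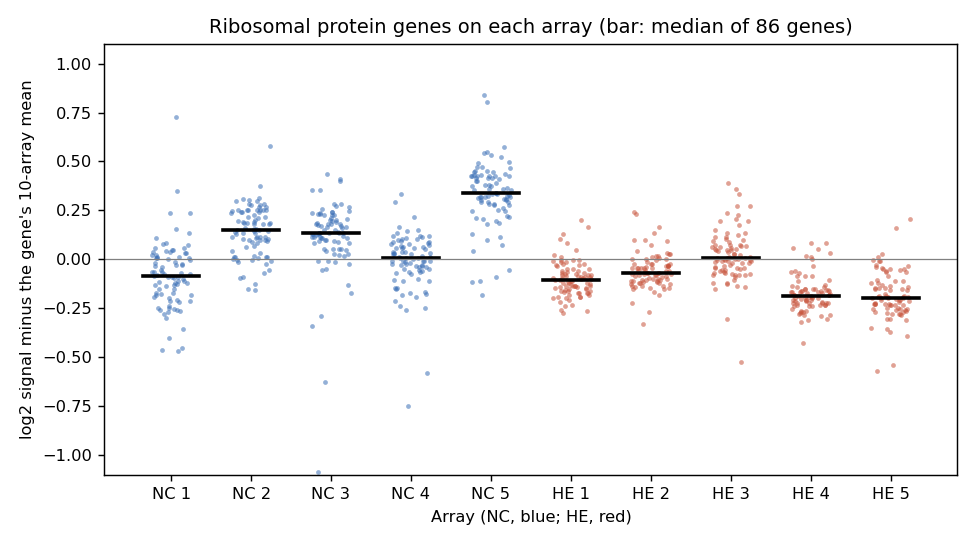
Each point is a ribosomal protein gene on 1 array, as its log2 signal relative to the 75th percentile minus its 10-array mean; bars are medians of 86 genes, with NC blue and HE red. NC 5 stands highest at 0.34 and HE 5 lowest at -0.20, while the NC 1 bar lies within the HE bars and the NC 4 bar just above the highest of them; 4 points of Rpl39l lie outside the axis.

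In the small subunit, 8 of 31 genes (25.8%) fell against the 75th percentile, beside 13.9% of all genes. The median of the 31 was -0.27, and none of the 8 passed the test without scaling or after centred normexp. Rps24, whose human counterpart is mutated in some Diamond-Blackfan anaemia, had the smallest p of the family. Its signal was 6.81, 7.07, 6.94, 6.93 and 7.22 on NC 1 to NC 5 and 6.52, 6.59, 6.66, 6.51 and 6.51 over the HE arrays in the same order. Every HE array lay below every NC array. Here and for the genes below, such separation is not separate from the small p on the same arrays. The log2 fold change was -0.44 ± 0.09 (SE, n = 5 and 5, limma adjusted p = 0.0153), so the signal fell by 26.1%, and Rps24 stayed past the threshold without any single array.

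The array's 60-base probes for 3 of the genes that fell are shown because they are what was measured, and close relatives or processed copies elsewhere in the genome can share such stretches. They come from the scanner files, which place them on mm9 at chr14:25311322-25312647 (Rps24, plus strand), chr2:38857243-38859643 (Rpl35, minus strand) and chrX:131122046-131122105 (Rpl36a, plus strand). The first 2 ranges are longer than the probe, so the files give a range that spans more than the matched bases.
Rps24: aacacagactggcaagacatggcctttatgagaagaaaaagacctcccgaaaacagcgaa
Rpl35: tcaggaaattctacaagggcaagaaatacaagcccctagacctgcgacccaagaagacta
Rpl36a: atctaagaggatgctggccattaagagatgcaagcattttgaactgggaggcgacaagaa

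Rps12, another small subunit gene, read 7.73, 7.93, 7.76, 7.81 and 8.06 in NC and 7.51, 7.55, 7.60, 7.39 and 7.42 in HE. The groups did not overlap, and the fold change was -0.36 ± 0.09 (limma adjusted p = 0.0224). Rps27a, which is made as a fusion with ubiquitin, read 6.39, 6.65, 6.57, 6.49 and 6.81 in NC and 6.16, 6.24, 6.35, 6.16 and 6.12 in HE. Its highest HE array, HE 3, lay just under its lowest NC array, NC 1. The fold change was -0.38 ± 0.10 (limma adjusted p = 0.0251).

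Rps19, which small subunit maturation needs and which is the gene most often mutated in Diamond-Blackfan anaemia, had the largest fall among the core subunit genes. It read 5.98, 6.01, 5.73, 5.45 and 6.48 in NC and 5.37, 5.37, 5.51, 5.21 and 5.24 in HE. NC 4 lay below HE 3, so the groups overlapped, and NC 5 was far above the other NC arrays. The fold change was -0.59 ± 0.17 (limma adjusted p = 0.0372), and the call was lost when NC 1, NC 2, NC 5 or any HE array was left out. A second Rps19 probe, matched to the RefSeq transcript and well above background on all 10 arrays, gave -0.20 ± 0.11 and did not pass (limma adjusted p = 0.211 over all probes), with means of 3.96 in NC and 3.75 in HE.

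The other small subunit genes that fell were Rps27 (-0.34), Rps21 (-0.33), Rps29 (-0.32) and Rps16 (-0.31), with adjusted p from 0.0411 to 0.0477. HE 3 lay above NC 4 for Rps29, and the groups did not overlap for the others. The probes that stand for Rps29 and Rps27 are placed by the files on chromosomes 2 and 9, while RefSeq puts the genes on chromosomes 12 and 3, so which copy these 2 probes read is uncertain. At the other end, Rps2 and Rps9 were among the 4 least changed genes of the family. Rps2 read 7.65 to 7.91 in NC and 7.60 to 7.99 in HE, with a fold change of 0.03 ± 0.09, and Rps9 had 0.02 ± 0.09. Rpsa, known also as a laminin receptor, had -0.11 ± 0.16 (adjusted p = 0.675).

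In the large subunit, 7 of 43 genes (16.3%) fell against the 75th percentile, close to the 13.9% of all genes. The median of the 43 was -0.22, and 0 of the 7 passed the test without scaling or after centred normexp. Rpl38, whose loss in the Tail short mouse alters the translation of Hox mRNAs, read 7.80, 7.92, 7.78, 7.65 and 8.07 in NC and 7.45, 7.56, 7.49, 7.34 and 7.36 in HE. The groups did not overlap, with a fold change of -0.40 ± 0.10 (limma adjusted p = 0.0205). Rpl35, which sits near the exit of the peptide tunnel, read 5.94, 6.17, 6.12, 5.89 and 6.41 in NC and 5.70, 5.75, 5.77, 5.58 and 5.59 in HE. Its groups did not overlap either, and the fold change was -0.43 ± 0.11 (adjusted p = 0.0259).

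Rpl36a, the X-linked gene whose probe and promoter are printed above, read 5.87, 6.09, 6.13, 6.01 and 6.30 in NC and 5.70, 5.76, 5.82, 5.68 and 5.62 in HE. HE 3 came closest to NC 1 without reaching it, and the fold change was -0.36 ± 0.09 (limma adjusted p = 0.0270). Rpl26 read 6.76, 7.02, 6.95, 6.85 and 7.23 in NC and 6.62, 6.66, 6.71, 6.46 and 6.55 in HE. Again the groups did not overlap, and the fold change was -0.36 ± 0.10 (adjusted p = 0.0346). Rpl11, which binds Mdm2 when ribosome assembly is disturbed, Rpl41, the shortest ribosomal protein, and Rpl27 fell by 0.32, 0.31 and 0.27, with adjusted p from 0.0386 to 0.0457 and no overlap between the groups.

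**Figure D3:**
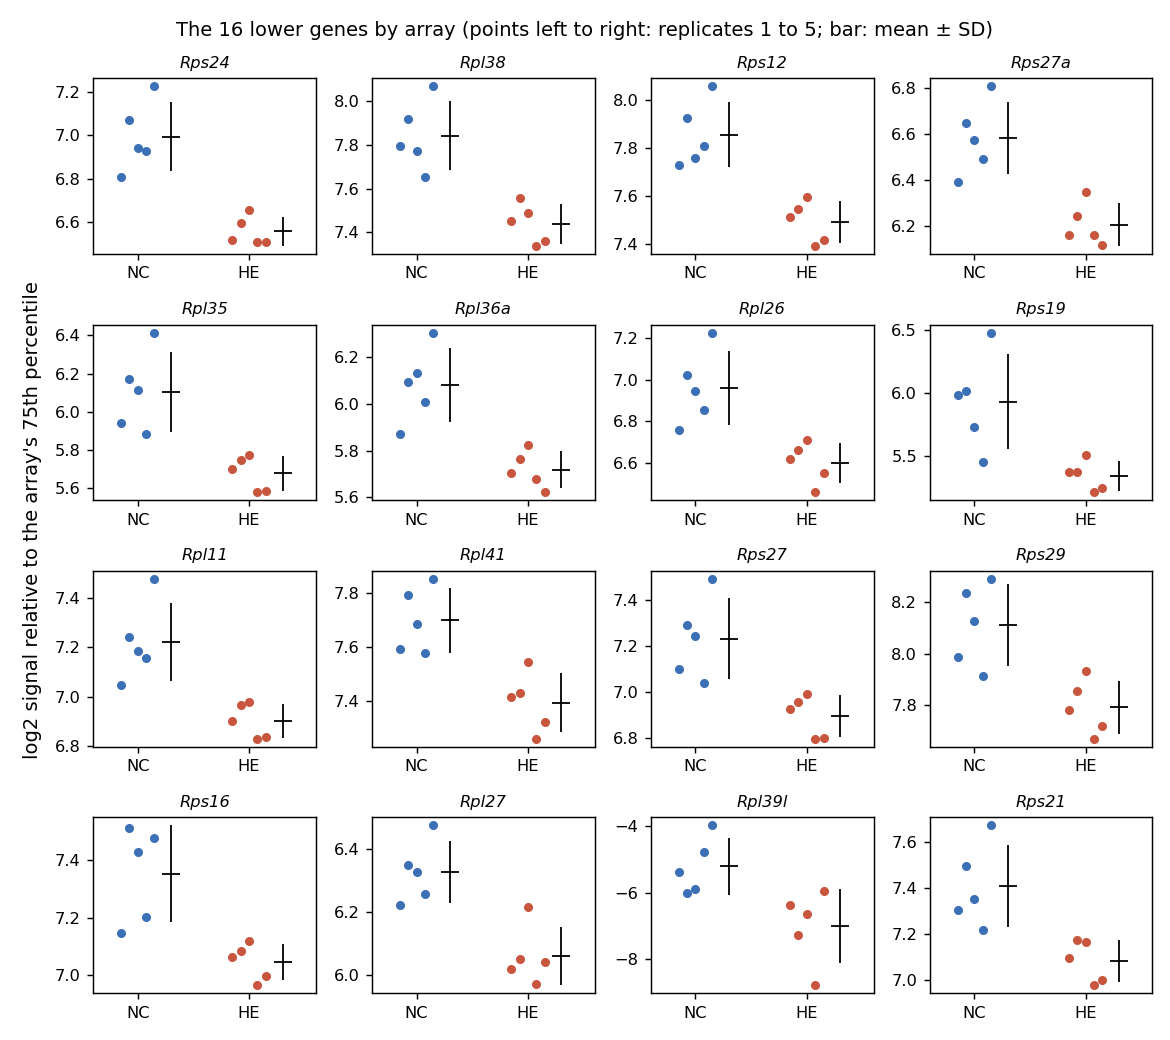
Log2 signal relative to the array's 75th percentile on each array for the 16 genes that were lower in HE on this scale, with the mean and SD beside the points; axes differ between panels and do not start at 0. In 13 of the 16 all HE points lie below all NC points, and Rps19, Rps29 and Rpl39l overlap. Over all genes, called or not, 11.0% had all HE arrays below all NC arrays. The 16 were chosen by p on these same arrays, so the separation gives no further support. In a fit without scaling between arrays 0 of these 16 passed the test.

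Some large subunit genes had positive values. Rpl27a read 3.07 on NC 3, 3.96 to 4.46 on the other NC arrays and 4.21 to 4.51 in HE. Apart from the low NC 3 the groups intermixed, so its fold change of 0.36 ± 0.23 did not pass the test (adjusted p = 0.298). Rpl21 read 1.23, 1.32, 1.25, 1.39 and 1.20 in NC and 1.55, 1.63, 1.53, 1.40 and 1.33 in HE. Only HE 5 fell inside the NC range, and the fold change of 0.21 ± 0.08 had an adjusted p of 0.103. Rpl6 was among the least changed, at 0.03 ± 0.20. Rpl29, which shared with Rps28 the largest number of entering probes, 4 each, had fold changes of 0.05 to 0.14 on its probes and none passed.

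The stalk recruits the translation factors that hydrolyse GTP, and none of its 3 genes passed the test. Rplp1 read 8.33, 8.45, 8.29, 8.33 and 8.49 in NC and 8.04, 8.21, 8.27, 8.05 and 7.99 in HE. Every HE array lay below every NC array, and the fold change of -0.27 ± 0.09 missed the threshold (limma adjusted p = 0.0528). Rplp0, the core of the stalk, had -0.17 ± 0.10 (adjusted p = 0.235). Rplp2 had 0.07 ± 0.08 (adjusted p = 0.612).

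Paralogs were compared with the genes they resemble, each within its own probe. Rpl39l, known for its expression in the male germ line, had the fold change of greatest size in the family. It read -5.38, -6.02, -5.90, -4.77 and -3.98 in NC and -6.38, -7.28, -6.64, -8.78 and -5.95 in HE. HE 5 lay above NC 2, and 3 NC arrays and 1 HE array were well above background. It thus entered the comparison through NC alone, the group where it was higher, and its fold change of -1.79 ± 0.56 (limma adjusted p = 0.0469) lies near the detection limit and gives no support to the count of 16. Rpl39 had -0.30 ± 0.11 (adjusted p = 0.0690).

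Of the other pairs, Rpl3 had -0.07 and Rpl3l, known from heart and skeletal muscle, 0.03. Rpl22 had -0.27 and Rpl22l1 -0.32, and Rps27 (-0.34) and Rps27l (-0.30) were also close. Rpl36a fell while Rpl36al had -0.16 ± 0.12 (adjusted p = 0.350). Rpl7 had -0.29 and Rpl7l1 0.09, and Rps4x had -0.28 and Rps4l -0.47 ± 0.24. The difference within a pair was not tested.

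Where a gene had several probes, they mostly shared a sign. Of 45 genes with several entering probes, 14 had probes of opposite sign, and for 0 of these did both signs pass the test. Over all 142 probes, each tested on its own, 23 were lower and 0 higher, beside 15.5% of all probes lower. Among the 56 probes that did not stand for their gene, 7 were lower, with a median of -0.13. The 4 probes of Rps28 were all negative, from -0.61 to -0.24, and 1 of them passed the test.

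The scale set the sign, so the members were also read relative to all genes on the same scale. Without scaling between arrays, the median of all genes moved from -0.06 to 0.22 and that of the ribosomal protein genes to 0.05. Since this choice moves every gene by the same amount, the difference between the medians, -0.17, could not change. On that scale Rpl21 (0.48), Rpl27a (0.63) and Rps19bp1 (0.38) were higher and 0 were lower, beside 21.2% of all genes higher and 6.16% lower. At an unadjusted p under 0.05 in limma 10 were higher and 1 lower, beside 32.5% of all genes higher and 2011 of the 20071 lower. With every array centred on the median of all genes, 4 members were lower (Rpl35, Rpl38, Rps12 and Rps24) and 1 higher (Rpl21), with a median of -0.15, beside 11.2% of all genes lower and 9.07% higher.

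In the authors' value table, 7 members were lower and 1 higher, with a median of -0.13, beside 11.9% of all genes lower and 9.57% higher. The 7 were Rpl22, Rpl35, Rpl36a, Rpl38, Rps19, Rps24 and Rps27a, of which 6 were also among the 16, and the higher gene was Rpl3l. In that table Rps24 read 16.96, 17.11, 17.05, 17.03 and 17.13 in NC and 16.74, 16.73, 16.79, 16.71 and 16.78 in HE on its log2 scale. Its groups did not overlap, and the fold change was -0.30 (limma adjusted p = 0.0173). Quantile normalization of the scanner signals gave the same counts, 7 and 1, beside 12.0% and 9.48% of all genes.

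After normexp background correction the relation to all genes turned. With arrays centred on the median gene the family's median was 0.20, against -0.07 for all genes, and only 5 of the 86 genes had a negative value. Rpl21 (0.54), Rpl27a (0.87), Rplp2 (0.54) and Rps19bp1 (0.49) were higher, and Rpl39l (-1.49) and Rpl3l (-1.08), both far under the 75th percentile in signal, were lower, beside 16.3% of all genes higher and 27.9% lower. On this scale the median of the other genes was -0.14 under a mean signal of 4, 0.45 between 4 and 5 and 0.27 above 7.

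Most ribosomal protein probes are bright, with a median mean signal of 6.06 against -0.96 for all genes, so they were also set beside probes of like brightness. Among genes whose mean signal was above 6, the 45 ribosomal protein genes had a median of -0.28 with 12 lower (26.7%). The 186 other genes had a median of -0.13 with 25 lower (13.4%). The gap between these medians was -0.15, which leaving out the scaling cannot alter, and it was -0.14 after quantile normalization and -0.16 after centred normexp. The difference in counts did not hold in this way. After quantile normalization 3 of the 45 (6.67%) were lower, beside 5.91% of the others. After centred normexp 0 were lower in either set, and without scaling 0 of the 45 and 2.15% of the others. Among genes under a mean signal of 4, the 14 ribosomal protein genes had a median of -0.05 and other genes -0.06 relative to the 75th percentile. The gap there turned with the processing, at -0.08 after quantile normalization (medians of -0.06 and 0.02) and 0.36 after centred normexp (0.22 and -0.14).

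**Figure D4:**
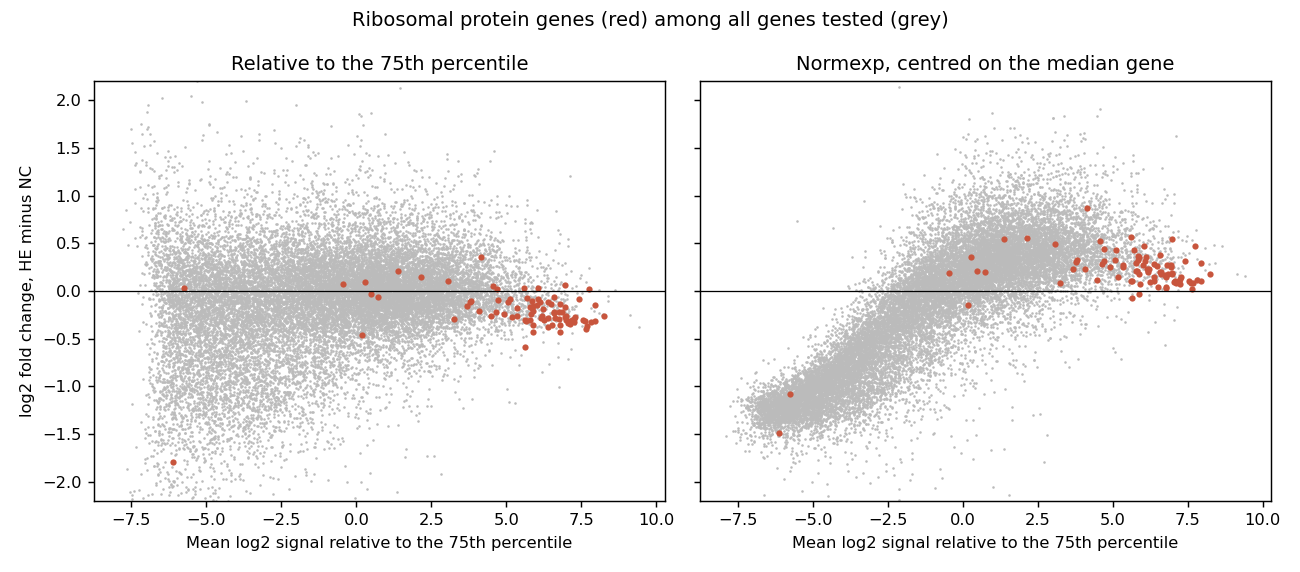
Log2 fold change, HE minus NC, against the mean log2 signal relative to the 75th percentile for all 20071 genes (grey) and the 86 ribosomal protein genes (red), under 2 kinds of processing; a few grey points lie outside the vertical axis. The red points sit at the bright end, mostly below 0 on the left and mostly above 0 on the right, and above a mean signal of 6 their median differs from that of other genes by -0.15 and -0.16.

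Slide and sex pattern touched the calls. Slides 1 and 3 each held 1 group, so a fit with slide as a block rests on slide 2, where NC 5 is set against HE 1 and HE 2, and it gave the same fold change as slide 2 alone for all 86 genes. NC 5 has low Xist and HE 1 and HE 2 have high Xist, so group and sex pattern cannot be told apart there. In that contrast the members' median was -0.43, beside -0.14 for all genes, and 80 of 86 were negative. With the block 0 members passed, beside 0.453% of all genes lower, and 38 were lower and 1 higher at an unadjusted p under 0.05 in limma, beside 14.4% and 9.16% of all genes. On slide 2 alone, with the lone NC array assumed to vary like the others, 0 members and 0 of all genes passed in limma, and 51 members were lower at an unadjusted p under 0.05, beside 21.8% of all genes. NC 5 holds the top signal of 67 of the 86 genes, and these counts rest on it.

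When the comparison used the 7 high-Xist arrays (4 NC and 3 HE), the median was -0.12, 63 of 86 were negative and 0 passed, beside 0.349% of all genes lower. At an unadjusted p under 0.05 in limma 7 members were lower and 2 higher there, beside 17.1% and 9.06% of all genes. The 16 called genes were negative in both comparisons, from -2.85 to -0.41 within slide 2 and from -1.24 to -0.19 on the arrays with high Xist. They were called lower on all 10 arrays, which include the arrays of both comparisons. The shared sign is therefore largely set by that choice and gives no separate support. Rps19 had -1.11 within slide 2 and -0.38 on the arrays with high Xist. Rps24 had -0.67 and -0.35, Rpl35 had -0.69 and -0.29, Rpl38 had -0.56 and -0.29, and Rpl36a had -0.57 and -0.26. With the Xist pattern as a covariate on all 10 arrays, 10 members were lower, with a median of -0.24, beside 15.3% of all genes.

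Single arrays also mattered for the count of 16, though not for the sign of the median relative to the 75th percentile. The number of all genes called lower, 2790 with all arrays, moved too. The members' count fell to 1 without NC 2 (Rps24), to 9 without NC 3 and to 5 without NC 5, beside 1415, 2782 and 1560 of all 20071 genes. Among HE arrays it fell to 2 without HE 1, 6 without HE 2, 10 without HE 3, 2 without HE 4 and 3 without HE 5, beside 1463, 2309, 1939, 2040 and 2138 of all genes. Without NC 1 it was 23 and without NC 4 it was 22, beside 2727 and 2819 of all genes. The median stayed between -0.29 and -0.17. With an intensity trend and a robust prior in limma, 31 members were lower, beside 15.2% of all genes.

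**Figure D5:**
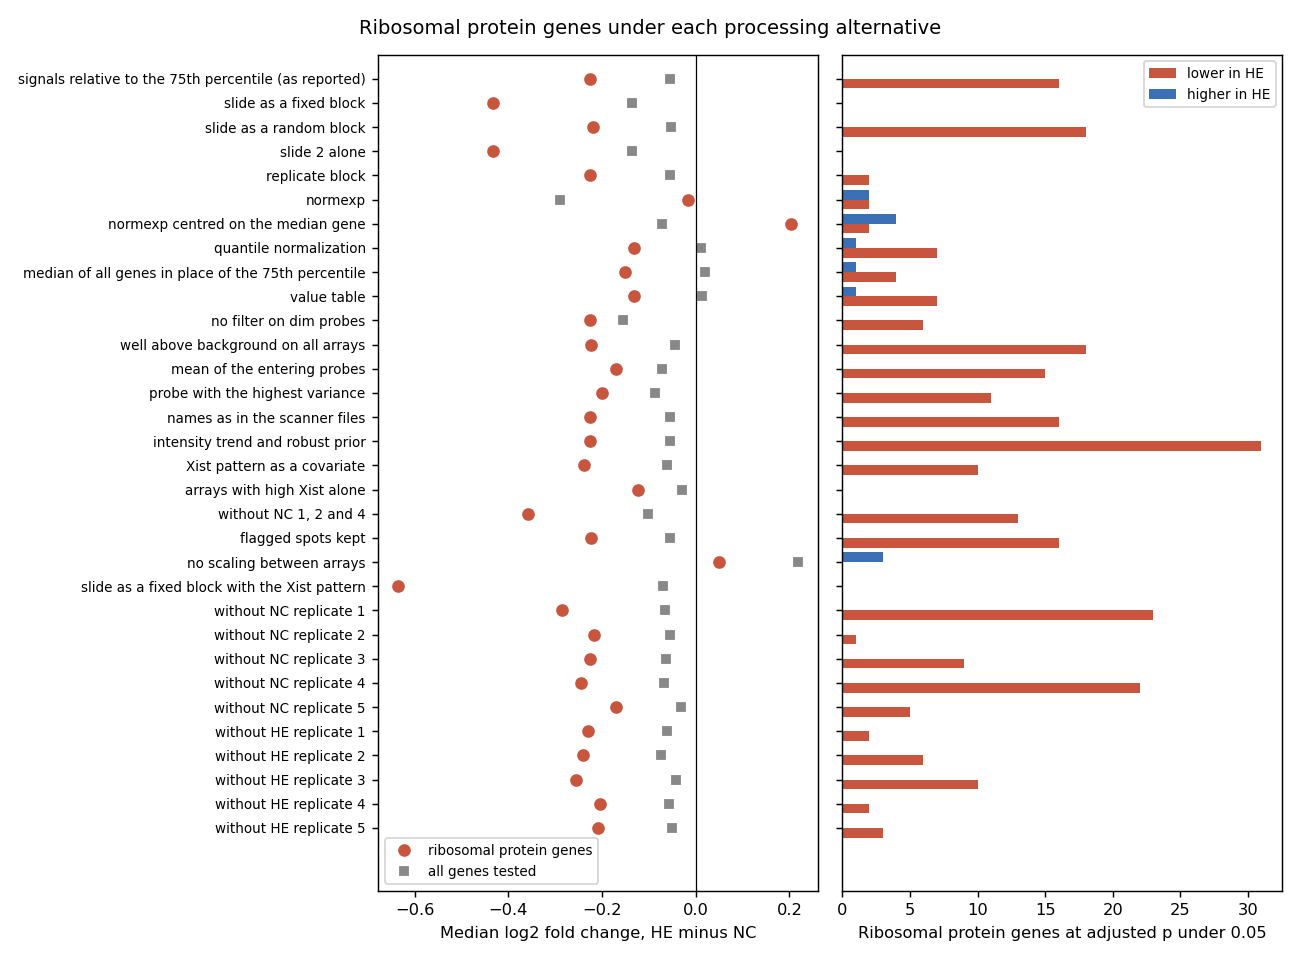
For each processing alternative, the left panel gives the median log2 fold change, HE minus NC, of the ribosomal protein genes (red circles) and of all genes (grey squares), and the right panel the number of ribosomal protein genes lower (red) or higher (blue) at an adjusted p under 0.05. The red median is negative except without scaling between arrays (0.05) and after centred normexp (0.20), and the counts run from 0 to 31 lower.

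Some subunits carry names outside the rule. Fau, a ubiquitin-like fusion of the small subunit, fell against the 75th percentile by 0.32 ± 0.10 (SE, limma adjusted p = 0.0465), with a value of 0.14 after centred normexp. Rack1, the scaffold on the small subunit's head, had -0.07 ± 0.08 (adjusted p = 0.613).

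The rest of the translation machinery was described from textbook lists. For these and the lists that follow, the share over all genes in the same fit was 13.9% lower and 6.49% higher. Of 19 elongation factors 1 was lower and 2 higher, with a median of 0.02. Eef1a2, the neuronal and muscle form of elongation factor 1 alpha, rose by 0.87 ± 0.13 (adjusted p = 0.00666), and Eef1d had -0.29 ± 0.08 (adjusted p = 0.0388). Of 42 initiation factors 0 were lower and 2 were higher, Eif2b5 (0.31) and Eif4g1 (0.61), with a median of 0.04. These genes are a contrast in count only, since no test compared the lists.

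Of 73 ribosome biogenesis genes 2 were lower and 7 higher, with a median of 0.02. Among them Gtpbp4, a GTPase of large subunit assembly, had -0.64 ± 0.09 (adjusted p = 0.00571), and Rrs1, which brings the 5S particle to the large subunit, had 0.48 ± 0.09 (adjusted p = 0.0104). Of 78 mitochondrial ribosomal protein genes 7 were lower and 2 higher, with a median of -0.05, close to that of all genes. Mrpl2 had 0.45 and Mrpl21 -0.32. Of 40 proteasome genes 1 was lower, Psma8 (-0.46), and 1 higher, Psmd9 (0.35), with a median of -0.05.

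Markers of cell types and regions moved with the groups in part. The summed signals of the myelin, hippocampal neuron and astrocyte lists separated the groups, and those of the other marker lists overlapped. The summed linear signal of 20 myelin genes was 544 to 769 times the 75th percentile in NC and 317 to 461 in HE, with 14 of 20 lower. That of 22 thalamus and habenula genes was 108 to 169 in NC and 70.0 to 120 in HE, with 11 of 22 lower, Tcf7l2 (-2.62) first among them. Above background on all 10 arrays were 19 of these 22, and the rest can have entered through 1 group alone. Of 17 hippocampal neuron genes, all above background on all 10 arrays, 4 were higher and 13 did not pass. The sum of the 17 was 114 to 310 in NC and 334 to 399 in HE, and the brightest genes, Nrgn and Camk2a, weigh most in it. The list was mixed in direction, with 4 negative values: Prox1 (-0.89), Bok (-0.53), Zbtb20 (-0.09) and C1ql2 (-0.09).

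Of 15 liver genes 7 were lower, and only 6 were above background on all arrays. The rest can have entered through 1 group alone, as Rpl39l did, so the 7 calls give no support to a fall. The liver sums were 16.4 to 39.4 in NC and 20.2 to 33.0 in HE. They include Trf, also in the myelin list, and Ttr, also in the choroid plexus list, so they are not of liver genes alone. Of 8 astrocyte genes 2 were lower, with sums of 197 to 217 in NC and 153 to 174 in HE, in which bright genes weigh most. That list was mixed in direction: 5 of 8 were negative, with a median of -0.15. For 1 of the 8 all HE arrays lay below all NC arrays, and for 1 all lay above. Of 4 red cell genes 1 was lower, with sums of 119 to 308 in NC and 72.0 to 133 in HE. Of 10 microglia genes 1 was higher, with sums of 34.7 to 44.3 and 32.4 to 45.8, and of 9 choroid plexus genes 0 passed, with sums of 2.66 to 40.6 and 3.36 to 29.8. Alb, the defining liver gene, was well above background on 6 of the 10 arrays. Another fit left out NC 1, NC 2 and NC 4, a choice made with earlier results known. In it 13 members were lower with a median of -0.36, beside 5.47% of all genes lower. In bulk tissue, fewer cells of a type and less RNA per cell cannot be told apart, and the part of these markers in the ribosomal protein values was not tested.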

How the data were processed

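The submitters' processing notes name Agilent Feature Extraction 10.7. The scanner files hold spot intensity on a linear scale, background-subtracted and detrended within each array and deposited without normalization between arrays, per the file headers. The authors' value table holds log2 values with no stated method. It correlated at 1 with log2 processed signals after quantile normalization, with array medians of 7.0334 to 7.0337, and its software is not given in the sources used here.

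From the log2 of the processed signal, the 75th percentile of the 41174 non-control probes of the same array was subtracted. Outlier spots flagged by the scanner software (68 to 129 per array) were removed, 0 were saturated, and repeat spots were averaged. To enter, a probe had to exceed background clearly in 3 or more arrays of either group, which 30984 did. The entering probe with the highest mean stood for its gene. Names came from the accessions in the files through RefSeq (GRCm38.p6), so that 86 symbols include Rps3a1 and Rps4l, which the files call Rps3a and Rps4y2.

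The comparison of HE with NC used all 10 arrays and no covariate (lmFit and eBayes of limma 3.58.1, R 4.3.3, two-sided). Benjamini-Hochberg adjustment ran over 20071 genes, and the code was tested on simulated data. The number of arrays limits the precision. Normexp used an offset of 50. The members, the gene lists and the alternatives were chosen with earlier results of these data known. Genes were named by rule: the 10 called members with the largest fold changes and the 6 with the smallest p, the 4 least changed, the stalk genes and Rpsa, paralog pairs, the members with most probes, and the 2 smallest p of each further list discussed. An item taken by this rule is not reported here. Rpl21, Rpl27a, Rps19bp1 and the remaining called members were named after their values were seen.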

Additional observations from a re-analysis of the deposited data

Results flagged for a closer look

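Dixon's test was applied to each group of 5 arrays for 37 named genes and for the family's median, 76 groups of values in all. In 3 of them a single array lay far from the other 4 of its group. Chance alone gives about 1 such case in 20 groups. Rps9 was low on NC 1 at 4.44, while the other NC arrays lay between 4.70 and 4.78. Rpl22l1 was high on HE 3 at 5.68, while the other HE arrays lay between 5.43 and 5.47. Rpl29 was high on HE 3 at 4.84, while the other HE arrays lay between 4.48 and 4.58. Values are log2 signals relative to the array's 75th percentile. None of these 3 genes passed the test between the groups.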

How the results depend on the processing

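Relative to the 75th percentile, 16 ribosomal protein genes were lower, with a median log2 fold change of -0.22, and 4092 genes in all were called. The count over all genes was 2790 lower and 1302 higher, against 1237 and 4257 without scaling, 2248 and 1820 with median centring, 2384 and 1921 in the value table and 7097 and 1787 after normexp. The number of ribosomal protein genes past the threshold in either direction was 0 with slide as a block, within slide 2, with slide and the Xist pattern together and on the arrays with high Xist alone. It was 3 without scaling, 4 after normexp, 5 with median centring, 6 after centred normexp and without the filter on dim probes, 8 after quantile normalization and in the value table, 10 with the Xist pattern as a covariate and 31 with an intensity trend and robust prior. The 6 without the filter on dim probes were all lower, beside 9.52% of the 27342 genes in that fit. Scaling off and slide with the Xist pattern were added after seeing the data.

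The median was -0.43 with slide as a block and within slide 2, which are 1 contrast, -0.64 with slide and the Xist pattern, -0.36 without NC 1, NC 2 and NC 4 and -0.017 after normexp, and it turned to 0.20 after centred normexp and to 0.05 without scaling. Genes called in all were 205 with slide as a block, 0 within slide 2, 3 with slide and the Xist pattern, 77 on the arrays with high Xist, 1922 without NC 1, NC 2 and NC 4, 8884 after normexp, 8867 after centred normexp and 7176 of the probes taken singly. Leaving out each array in turn gave 1 to 23 ribosomal protein genes, medians of -0.29 to -0.17 and 1982 to 4216 genes in all. The cause of these changes was not tested, except that fewer arrays entered in several of them.

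Replicate numbers shared by the groups did not pair the arrays (correlations of deviations from -0.077 to 0.13). With the replicate number as a block, 2 ribosomal protein genes, Rpl38 and Rps24, were past the threshold.

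Of 1183 values of the 37 named genes under 32 alternatives, 805 kept direction and side of the threshold, 272 lost the call, 23 gained it and 83 changed sign. After centred normexp the values that changed sign were Rps24 0.045, Rpl38 0.015, Rps27a 0.15, Rps12 0.085, Rpl26 0.032, Rpl36a 0.077, Rps27 0.10, Rpl3l -1.08, Rplp0 0.27, Rplp1 0.18, Rpsa 0.32, Rpl3 0.43, Rpl7 0.18, Rpl10 0.35, Rpl22 0.12, Rpl22l1 0.10, Rpl36al 0.22, Rpl39 0.21, Rps4x 0.23, Rps27l 0.079, Rps28 0.12, Rpl11 0.091, Rpl27 0.19, Rpl41 0.10, Rps16 0.11, Rps21 0.072 and Rps29 0.11. After normexp alone they were Rpl3l -1.30, Rplp0 0.050, Rpsa 0.10, Rpl3 0.21, Rpl10 0.14, Rpl36al 0.0051 and Rps4x 0.012. Without scaling they were Rplp0 0.10, Rplp1 0.0076, Rpsa 0.17, Rpl3 0.20, Rpl10 0.16, Rpl22 0.0066, Rpl36al 0.11 and Rpl27 0.0087. With the probe of highest variance they were Rps12 0.052, Rps9 -0.054, Rplp0 0.0056, Rpl7 0.092, Rpl22l1 0.14, Rps4x 0.24 and Rpl27 0.053, and with the mean of probes Rps9 -0.016 and Rpl6 -0.045. With slide as a block, and equally within slide 2, they were Rps9 -0.078, Rpl6 -0.60 and Rpl29 -0.11. With slide and the Xist pattern they were Rps9 -0.31, Rps2 -0.22, Rpl6 -0.71, Rplp2 -0.10, Rpl7l1 -0.39 and Rpl29 -0.46. With the Xist pattern alone it was Rpl6 -0.026, and on the arrays with high Xist they were Rpsa 0.085, Rpl3 0.021 and Rpl10 0.034. Without NC 1, NC 2 and NC 4 they were Rps9 -0.052, Rpl6 -0.10, Rpl7l1 -0.025 and Rpl29 -0.12, and with median centring it was Rpl3 0.0014. Leaving out single arrays moved Rps9 between -0.040 and 0.044, Rps2 between -0.028 and 0.068, Rpl6 between -0.11 and 0.18, Rpl3l between -0.016 and 0.092, Rpl29 between -0.0095 and 0.10 and Rpl3 between -0.20 and 0.031.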

Other observations

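Several ribosomal protein genes carried a second, dim probe beside the bright probe that stands for the gene. The dim probes below were picked after their values were seen, and others are left out. The difference between probes of a gene was not tested. Rps13, a small subunit gene, had -0.06 ± 0.08 on its bright probe and -0.68 ± 0.15 (SE, 5 and 5 arrays, limma adjusted p = 0.0137 over all probes) on a probe with mean signals of -1.73 in NC and -2.40 in HE. Rps25 had -0.19 ± 0.10 on its bright probe and -0.48 ± 0.13 (adjusted p = 0.0284) on a dim probe. Rpl11 had -0.51 ± 0.13 (adjusted p = 0.0256) and Rps24 -0.55 ± 0.15 (adjusted p = 0.0282) on dim probes, beside -0.32 and -0.44 on bright ones. A further dim probe of Rps24, of like brightness, had -0.35 ± 0.23 and did not pass (limma adjusted p = 0.292). For Rps12 and Rpl27 both dim probes had 0.05, with SE of 0.16 and 0.28, beside -0.36 and -0.27 on the bright ones. All these dim probes were well above background on all 10 arrays. The files place that of Rpl11 within the range of the bright probe of the same gene, and the others outside it.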
